A study of Homo sapiens with 10 samples.

Results

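SCG2, BEX2, BRINP3, MCHR1, SEMA6B, CHST1 and ANK1 are 7 human genes with roles in neural or neuroendocrine cells or in the products such cells make, and they were selected by name because their measured levels differed between cells exposed to hydroxyprogesterone caproate (HPC) and cells in solvent. Since the difference between HPC and DMSO chose them, their values in that comparison are a description and carry no test. They are 7 of 16734 genes in the deposited table. The cells were MIA PaCa-2, an established line from a human pancreatic ductal adenocarcinoma, for which the labels name no genetic change. HPC is a synthetic progestin. The HPC group held 5 libraries, from cells exposed to HPC at 10 µM over 24 h, and the DMSO group held 5 libraries, from cells given the same volume of the solvent dimethyl sulfoxide (DMSO) over the same time. Both groups grew in the same serum-containing medium. They are labelled as biological replicates, with no culture or day given, so the errors and the p-values describe library-to-library spread.

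Neurons and neuroendocrine cells store peptides in dense-core granules built around granin proteins and release them through calcium-triggered fusion, and their surfaces carry peptide receptors and guidance proteins such as semaphorins. In most other cells the repressor REST keeps many of these genes low, while transcription factors of the CREB family are known to raise several of them. Pancreatic ductal cells are not neuroendocrine, although pancreatic islets are, and pancreatic cancer lines can express single genes of this kind without the rest of the programme.

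Levels are given as FPKM (fragments per kilobase, corrected for library depth). The gene lengths behind the values are not given. Orders, percentiles, sums across genes and a minimum in FPKM depend on those lengths, whereas the ratio of reads between HPC and DMSO within a gene does not. For example, in DMSO ANK3 averaged 0.642 FPKM from 16812 reads over the 5 libraries, and VGF averaged 1.32 FPKM from 3264 reads. The fit covered the 9150 genes that reached 1 FPKM in 5 or more libraries, and all 7 genes were among them. SCG2 and SEMA6B were at or above 1 FPKM in all 10 libraries, whereas the other 5 passed through the group where they were high. Of the tested genes, 3922 (42.9%) were called higher and 4099 (44.8%) lower in HPC at an adjusted p under 0.05, and the HPC and DMSO values did not overlap for 7285 (79.6%). The counts of each gene list below are to be read beside these shares. Of the 7 genes, 2 were higher in HPC (BEX2, CHST1), 5 were lower (SCG2, BRINP3, MCHR1, SEMA6B, ANK1), and none had overlapping groups, counts that the choice of the genes fixes. Lower calls made up 51.1% of all calls, and 63.4% when libraries were scaled to genes not encoded by mitochondria, a scaling that moved the median log2 fold change of all tested genes to -0.19 from -0.01.

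The libraries held between 65851176 and 82218527 reads recovered from the FPKM values. The markers below were named after their values were seen. The label of a pancreatic ductal carcinoma was only partly matched by markers: keratins KRT8 (57.7 FPKM in HPC and 51.8 FPKM in DMSO) and KRT18 (150 FPKM and 114 FPKM in the same order) were high, the ductal markers KRT19 (10.1 FPKM in HPC and 24.0 FPKM in DMSO, log2 fold change -1.25, adjusted p = 6.17e-09) and SOX9 (8.72 FPKM and 24.7 FPKM in the same order, -1.50, adjusted p = 8.96e-12) fell, and the epithelial adhesion genes EPCAM and CDH1 had at most 0.0111 FPKM in any library. Of 12 epithelial and ductal markers in the table, 4 were tested, with 2 higher (KRT18, and KRT8, whose log2 fold change of 0.15 came to -0.01 under the scaling to genes not encoded by mitochondria and -0.04 under quantile normalization) and 2 lower (KRT19, SOX9). The 12 summed, mostly KRT8 and KRT18, to 221 to 239 FPKM in HPC and 207 to 225 FPKM in DMSO. Of 6 pancreatic endocrine and acinar markers in the table, 1 was tested, MAFA, a beta-cell transcription factor that was higher in HPC (log2 fold change 0.54). The 6 summed to 1.86 to 2.19 FPKM in HPC and 1.01 to 1.55 FPKM in DMSO, mostly MAFA, which averaged 1.95 FPKM in HPC and 1.32 FPKM in DMSO. GCG, IAPP and PTF1A were at 0 in all DMSO libraries and at most 0.0234 FPKM in any HPC library, near the limit of counting. Of 12 mesenchymal, glial, endothelial and blood markers in the table, 2 were tested and both were lower in HPC, VIM (log2 fold change -1.06) and CDH5 (-3.76). The 12 summed to 323 to 346 FPKM in HPC and 683 to 720 FPKM in DMSO. Most of this was VIM, which averaged 333 FPKM in HPC and 695 FPKM in DMSO. Among the untested, PDGFRB was higher in HPC without overlap (293 reads in HPC and 11 in DMSO), and COL1A1 was lower without overlap (23 and 257 reads). The leukocyte marker PTPRC was at 0 in all DMSO libraries and at most 0.00291 FPKM in HPC. The endothelial marker PECAM1 was at 0 in all HPC libraries and at most 0.00844 FPKM in DMSO. In bulk RNA, fewer cells of a type and less RNA per cell cannot be told apart, and the part of these markers in the results was not tested.

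In HPC the 7 genes ranked by FPKM as BEX2, SCG2, CHST1, SEMA6B, BRINP3, ANK1 and MCHR1. In DMSO the order was SCG2, SEMA6B, BRINP3, ANK1, MCHR1, BEX2 and CHST1. Within each group, no 2 neighbours in the order had overlapping FPKM ranges. These orders and the percentiles below depend on gene lengths that are not given, so they are not orders of abundance. ANK1 stood below BRINP3 in FPKM but had more reads, 2513 against 1094 in HPC and 66020 against 32477 in DMSO. BEX2 stood at the 95.2 percentile of the mean levels of all genes in the table in HPC, and at the 40.2 percentile in DMSO. CHST1 stood at the 81.3 percentile in HPC and the 26.7 percentile in DMSO, and SCG2, which remained well expressed, at the 86.5 percentile in HPC and the 97.6 percentile in DMSO.

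**Figure D1:**
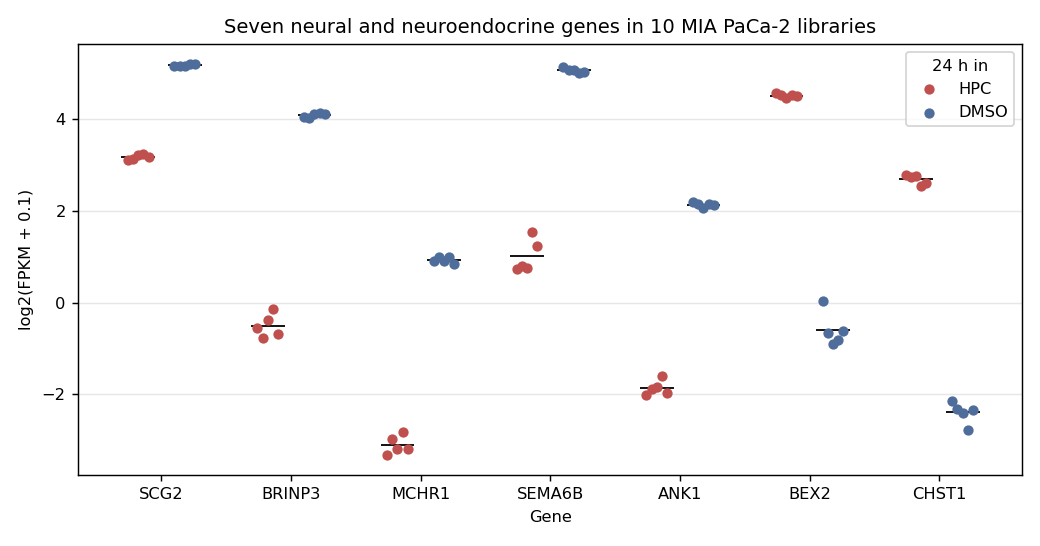
Levels of the 7 genes in each library, as log2(FPKM + 0.1), with HPC points left of DMSO points (5 libraries each) and black lines at the group means. SCG2, BRINP3, MCHR1, SEMA6B and ANK1 sit lower in all 5 HPC libraries than in any DMSO library, and BEX2 and CHST1 sit higher.

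SCG2 encodes secretogranin II, a granin that forms the core of secretory granules and is cut to the peptide secretoneurin. Its gene (ENSG00000171951) lies on the minus strand at chr2:223596940-223602503 of GRCh38. SCG2 had 8.44, 8.61, 9.13, 9.32 and 8.82 FPKM in HPC replicates 1 to 5, against 35.6, 35.6, 35.4, 36.6 and 36.7 FPKM in DMSO replicates 1 to 5. The 5 HPC libraries lay close together, and the lowest DMSO library was 3.80 times the highest HPC library. Means were 8.87 ± 0.361 FPKM in HPC and 36.0 ± 0.623 FPKM in DMSO (SD, n = 5 each), a log2 fold change of -2.01 ± 0.029 (SE) on the log2(FPKM + 0.1) scale. Counted as reads, SCG2 was 4.05-fold lower in HPC (95% interval 3.97 to 4.14, which covers counting error only). SCG2 had the smallest fold difference of the 7 genes and stood at rank 169 of 9150 from the most reduced gene.

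Other granins and the enzymes that mature prohormones moved in both directions. Of 14 such genes in the table, 7 were tested, 3 were higher and 4 lower, and their median log2 fold change was -0.28, beside -0.01 over all tested genes, and came to -0.44 under the scaling to genes not encoded by mitochondria. VGF, the precursor of several neuropeptides, was higher in HPC (6.94 ± 0.301 FPKM in HPC and 1.32 ± 0.151 FPKM in DMSO, log2 fold change 2.32 ± 0.063, adjusted p = 8.79e-13). VGF was between 6.57 and 7.26 FPKM in HPC libraries and between 1.20 and 1.57 FPKM in DMSO libraries, so this granin and SCG2 lay on opposite sides. CPE, the carboxypeptidase that trims prohormone ends, fell in HPC (log2 fold change -1.35, adjusted p = 4.86e-11), as did PCSK1N, an inhibitor of the convertase PCSK1 (-0.82, adjusted p = 8.6e-09), and QPCT, which cyclises peptide ends (-0.74, adjusted p = 5.35e-08). CHGB, chromogranin B, was under the filter and so not tested, with 0.614 to 0.945 FPKM in HPC and 0.201 to 0.367 FPKM in DMSO. CPD (9.06 FPKM in HPC and 6.09 FPKM in DMSO, log2 fold change 0.56, adjusted p = 1.08e-08) and PAM (0.31, adjusted p = 7.93e-06) rose, and FURIN fell (-0.28, adjusted p = 4.99e-05), 3 processing enzymes named after their values were seen. Several other granule genes were close to absent: SCG3 averaged 0.00818 FPKM in HPC and 0.0151 FPKM in DMSO, SCG5 averaged under 0.001 FPKM in both groups, and CHGA and PCSK1 were above 0 in 1 HPC library each.

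The machinery that docks and fuses granules also split. Of 32 genes in the table, 11 were tested, with 7 higher and 4 lower, and a median log2 fold change of 0.30 that came to 0.06 under the scaling to genes not encoded by mitochondria. RAB27B, a small GTPase that tethers granules, was the most abundant of them and rose in HPC (371 ± 10.3 FPKM in HPC and 99.6 ± 2.82 FPKM in DMSO, log2 fold change 1.90, adjusted p = 2.33e-15). The plasma membrane SNARE protein gene STX4 also rose (1.43, adjusted p = 1.05e-12), whereas the vesicle SNARE gene VAMP8 fell (-1.43, adjusted p = 1.87e-10) and so did the granule GTPase gene RAB3D (-1.28, adjusted p = 2.14e-08). The synaptic vesicle protein gene SYP was not tested and its groups overlapped, at 0.647 ± 0.0700 FPKM in HPC and 0.547 ± 0.0771 FPKM in DMSO.

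Most neuroendocrine and neuronal markers were at a low FPKM in both groups, which does not mean few reads, since gene lengths are not given. In HPC and DMSO, PAX6 had 2435 and 4693 reads, RET 2450 and 4201, and MAPT 4449 and 7979. These genes, untested and named after their values were seen, were lower in HPC without overlap. With no minimum, 4 neuroendocrine genes were called higher and 3 lower, and 4 and 6 neuronal genes, beside 5220 and 6060 of 16734 genes. Of 15 neuroendocrine markers and transcription factors in the table, 13 were below 1 FPKM in all libraries and 2 were tested, the adhesion gene L1CAM (lower, log2 fold change -0.25, adjusted p = 0.000117) and the enolase gene ENO2 (higher, 0.36, adjusted p = 0.00328, named after its value was seen), with a median of 0.05 that came to -0.11 under the scaling to genes not encoded by mitochondria. ENO2 groups overlapped, at 3.25 to 3.67 FPKM in HPC and 2.13 to 3.28 FPKM in DMSO, and its call was lost under that scaling (log2 fold change 0.20, adjusted p = 0.0593). Of 21 neuronal cytoskeleton and RNA-binding genes in the table, 17 were below 1 FPKM in all libraries and 4 were tested, with 1 higher, 3 lower and a median of -1.63. NES, the intermediate filament protein nestin of neural progenitors, was lower by a log2 fold change of -3.51 (0.0442 FPKM in HPC and 1.52 FPKM in DMSO, adjusted p = 1.49e-11). The stathmin gene STMN3 (-2.0, adjusted p = 1.9e-13) and the tubulin gene TUBB3 (-1.26, adjusted p = 1.66e-12) also fell, and MAP1B, a microtubule-binding protein of growing axons, rose (3.02, adjusted p = 5.61e-14). The neural adhesion gene NCAM1, named after its values were seen, was at 0 in all DMSO libraries and averaged 0.00042 FPKM in HPC.

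MCHR1 encodes a G protein-coupled receptor for melanin-concentrating hormone, a hypothalamic peptide known for its part in feeding. The gene (ENSG00000128285) lies on the plus strand at chr22:40678750-40682814. MCHR1 had 0, 0.0272, 0.00908, 0.0410 and 0.0103 FPKM in HPC replicates 1 to 5, against 1.77, 1.89, 1.78, 1.90 and 1.68 FPKM in DMSO replicates 1 to 5. As reads, these were 0, 11, 4, 16 and 4 in HPC and 777, 818, 865, 804 and 711 in DMSO. All HPC libraries were near the limit of counting, and a count of 0 in HPC replicate 1 allows up to 3 reads, or 0.00735 FPKM. Means were 0.0175 ± 0.0164 FPKM in HPC and 1.80 ± 0.0917 FPKM in DMSO (SD, n = 5 each). The log2 fold change of -4.03 ± 0.091 was held in by the added 0.1 FPKM, which is above every HPC value. From 35 reads in HPC and 3975 in DMSO, MCHR1 was 105-fold lower in HPC (95% interval 75.1 to 150), the largest ratio of reads among the 7 genes.

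The hormone and the signalling partners of the receptor differed in level. PMCH, the precursor of melanin-concentrating hormone, was above 0 in 1 HPC library and 1 DMSO library, and averaged 0.00712 FPKM in HPC and 0.0148 FPKM in DMSO. Of 20 genes of the receptor system and of G protein coupling in the table, 10 were tested, with 5 higher, 3 lower and 2 not called, and a median of 0.08 that came to -0.08 under the scaling to genes not encoded by mitochondria. The somatostatin receptor gene SSTR5, another peptide receptor, fell, with a log2 fold change of -2.97 ± 0.22 (adjusted p = 2.81e-07). SSTR5 had 0.181, 0.322, 0.207, 0.479 and 0.401 FPKM in HPC replicates 1 to 5, against 3.42, 3.38, 2.87, 3.62 and 2.22 FPKM in DMSO replicates 1 to 5, with no overlap. The phospholipase gene PLCB3 (-1.35, adjusted p = 9.88e-13) and the inhibitory G protein gene GNAI2 (-1.21, adjusted p = 3.35e-13) fell, and TULP3, which brings receptors into the primary cilium, rose (0.40, adjusted p = 2.99e-08).

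SEMA6B encodes a transmembrane semaphorin, an axon guidance protein that binds A-type plexins. The gene (ENSG00000167680) lies on the minus strand at chr19:4542593-4559808. SEMA6B had 1.57, 1.63, 1.59, 2.78 and 2.24 FPKM in HPC replicates 1 to 5, against 34.9, 33.2, 33.5, 32.0 and 32.4 FPKM in DMSO replicates 1 to 5. HPC replicates 4 and 5 were above the other HPC libraries, and the lowest DMSO library was still 11.5 times the highest HPC library. Means were 1.96 ± 0.537 FPKM in HPC and 33.2 ± 1.15 FPKM in DMSO (SD, n = 5 each), and the log2 fold change was -4.05 ± 0.15. The ratio of reads was 17.1-fold lower in HPC (95% interval 16.6 to 17.6), an interval that leaves out the spread between HPC libraries, whose coefficient of variation was 27.4%.

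Of 29 semaphorins, plexins and neuropilins in the table, 9 were tested, with 3 higher and 6 lower and a median of -0.76, and none was higher under the scaling to genes not encoded by mitochondria. The secreted semaphorins SEMA3C (16.0 FPKM in HPC and 37.4 FPKM in DMSO, log2 fold change -1.22, adjusted p = 1.52e-11) and SEMA3A (19.3 FPKM and 37.7 FPKM in the same order, -0.97, adjusted p = 1.33e-12) fell, as did the transmembrane SEMA4B (-1.13, adjusted p = 3.59e-10). Among the receptors, PLXND1 (-1.05, adjusted p = 6.01e-10) and PLXNA1 (-0.71, adjusted p = 3.53e-11) fell. The 3 higher genes, named after their values were seen, changed less. They were SEMA3D (0.25, adjusted p = 0.000114), the A-type plexin PLXNA3 (0.22, adjusted p = 0.00829) and SEMA4C (0.13, adjusted p = 0.00628). PLXNA2 and PLXNA4, known receptors of class 6 semaphorins, averaged 0.0222 and 0.00111 FPKM in HPC and 0.0405 and 0.00274 FPKM in DMSO. The relatives SEMA6A (0.0212 FPKM in HPC and 0.0200 FPKM in DMSO) and SEMA6C (0.248 ± 0.0439 FPKM in HPC and 0.596 ± 0.0268 FPKM in DMSO) were under the filter.

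**Figure D2:**
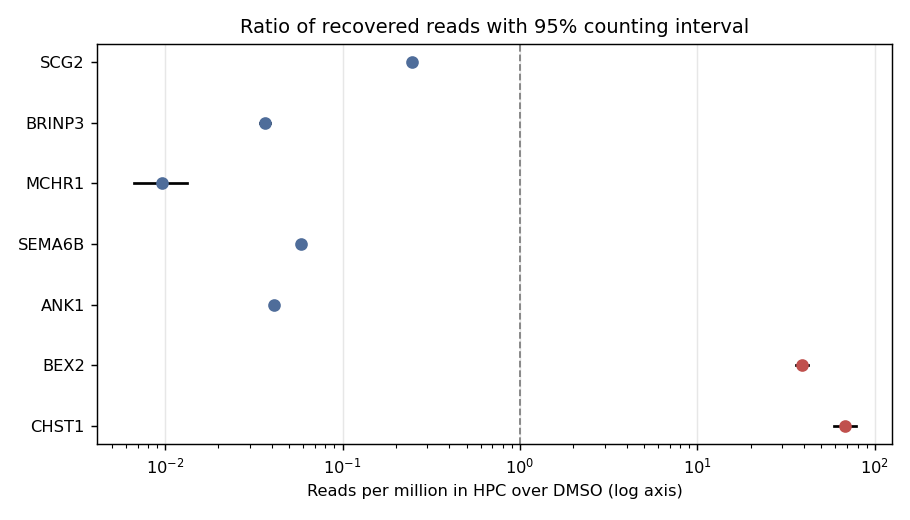
Reads of each gene in HPC over DMSO, relative to the recovered library totals and summed over 5 libraries each, on a log axis, with 95% Clopper-Pearson intervals that cover counting error only. The point for MCHR1, a ratio of 0.00956, lies farthest left with the widest interval, and the point for CHST1, a ratio of 68.0, farthest right.

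BRINP3 belongs to a family named for induction by bone morphogenetic protein and retinoic acid in neural cells, where its members are known to slow the cell cycle. The gene (ENSG00000162670) lies on the minus strand at chr1:190097662-190478404. Its RefSeq promoter table (GRCh38.p14) holds 2 start sites, and the upstream one is shown because it carries a match to a searched stress-response motif, in capitals. The 250 bases before that start, at chr1:190477865-190478114 on the minus strand and written 5′ to 3′, are:
BRINP3: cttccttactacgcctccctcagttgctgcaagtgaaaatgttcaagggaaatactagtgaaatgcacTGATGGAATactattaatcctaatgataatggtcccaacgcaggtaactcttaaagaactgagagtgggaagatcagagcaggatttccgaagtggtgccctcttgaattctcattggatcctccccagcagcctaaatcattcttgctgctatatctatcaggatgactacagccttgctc

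BRINP3 had 0.585, 0.486, 0.663, 0.813 and 0.524 FPKM in HPC replicates 1 to 5, against 16.4, 16.0, 17.1, 17.4 and 17.2 FPKM in DMSO replicates 1 to 5. HPC replicate 4 was the highest of its group, and every HPC library stayed under 1 FPKM. Means were 0.614 ± 0.130 FPKM in HPC and 16.8 ± 0.584 FPKM in DMSO (SD, n = 5 each), a log2 fold change of -4.58 ± 0.10, and the ratio of reads was 27.4-fold lower in HPC (95% interval 25.8 to 29.1). On the log2(FPKM + 0.1) scale BRINP3 stood at rank 5 from the most reduced of the 9150 tested genes, the lowest log2 fold change of the 7. That order depends on the added 0.1 FPKM, since by reads MCHR1 was 105-fold lower. An antisense gene, AL354771.1, overlaps it in GENCODE 29, and since the strand setting of the counting is not given, reads of the pair cannot be told apart.

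Of 17 genes of the BRINP family and the retinoic acid system in the table, 7 were tested, with 4 higher and 3 lower, and a median of 0.15 that came to -0.01 under the scaling to genes not encoded by mitochondria. ALDH1A1, which makes retinoic acid from retinaldehyde, fell (129 ± 7.12 FPKM in HPC and 302 ± 4.25 FPKM in DMSO, log2 fold change -1.24, adjusted p = 6.81e-13), and ALDH1A3, which does the same, rose (28.0 FPKM and 16.3 FPKM in the same order, 0.78, adjusted p = 3.5e-10). The retinoid receptor gene RXRA (-1.16, adjusted p = 2.63e-12) and the retinaldehyde reductase gene DHRS3 (-1.16, adjusted p = 1.41e-08) fell. BRINP1 and BRINP2 were not analysed here.

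BEX2 is a small brain-expressed protein encoded on the X chromosome, in a cluster with its BEX and TCEAL relatives. The gene (ENSG00000133134) lies on the minus strand at chrX:103309346-103311046. The 250 bases before its RefSeq start, at chrX:103310991-103311240 on the minus strand and written 5′ to 3′, are shown beside those of BRINP3 because both genes are far from 1 in ratio and in opposite directions; no searched motif was found in them, so no base is in capitals:
BEX2: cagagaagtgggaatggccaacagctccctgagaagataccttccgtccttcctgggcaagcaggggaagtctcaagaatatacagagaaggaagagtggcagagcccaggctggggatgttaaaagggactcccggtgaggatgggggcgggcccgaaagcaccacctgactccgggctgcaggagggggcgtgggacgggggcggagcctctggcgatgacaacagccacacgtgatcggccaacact

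BEX2 had 23.4, 22.7, 21.6, 22.8 and 22.3 FPKM in HPC replicates 1 to 5, against 0.931, 0.529, 0.439, 0.467 and 0.553 FPKM in DMSO replicates 1 to 5. DMSO replicate 1 stood above the other DMSO libraries, and the lowest HPC library was 23.2 times the highest DMSO library. Means were 22.5 ± 0.640 FPKM in HPC and 0.584 ± 0.200 FPKM in DMSO (SD, n = 5 each), a log2 fold change of 5.09 ± 0.15, and the ratio of reads was 38.7-fold higher in HPC (95% interval 36.0 to 41.7). BEX2 stood at rank 6 from the most raised of the 9150 tested genes.

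The relatives of BEX2 and their partner NGFR gave values on both sides. BEX1 had 28, 35 and 37 reads in HPC replicates 2, 4 and 5, and 0 reads in HPC replicates 1 and 3 and in all 5 DMSO libraries. The BEX1 and BEX2 transcripts were 84.9% identical over 800 aligned bases, with a longest exact shared run of 75 bases, and no stretch of 150 bases, the read length, was shared. BEX3, a partner of the neurotrophin receptor NGFR, fell to 18.2 ± 0.892 FPKM in HPC, against 48.6 ± 2.08 FPKM in DMSO (log2 fold change -1.41, adjusted p = 7.04e-13). NGFR itself rose (8.28 ± 1.04 FPKM in HPC and 0.672 ± 0.0975 FPKM in DMSO, log2 fold change 3.44 ± 0.099, adjusted p = 5.26e-12), with 7.06 to 9.68 FPKM in HPC libraries and 0.529 to 0.790 FPKM in DMSO libraries. Of 12 genes of the BEX and TCEAL list in the table, NGFR included, 7 were tested, with 3 higher, 3 lower and 1 not called, and a median of 0.13 that came to -0.04 under the scaling to genes not encoded by mitochondria. TCEAL1 (-1.37, adjusted p = 2.18e-10) and TCEAL8 (-0.57, adjusted p = 6.43e-07) fell. BEX4 was not analysed here.

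CHST1 encodes the sulfotransferase that adds sulfate to galactose in keratan sulfate, a sugar chain of brain and cornea. The gene (ENSG00000175264) lies on the minus strand at chr11:45648877-45665622, where an antisense gene, AC087442.1, overlaps it. As for BRINP3, reads of the pair cannot be told apart. CHST1 had 6.80, 6.53, 6.60, 5.70 and 6.0 FPKM in HPC replicates 1 to 5, against 0.128, 0.101, 0.0904, 0.0458 and 0.0990 FPKM in DMSO replicates 1 to 5. HPC replicate 4 was the lowest of its group and still 5.70 FPKM, and every DMSO library was below 0.2 FPKM. Means were 6.33 ± 0.459 FPKM in HPC and 0.0929 ± 0.0298 FPKM in DMSO (SD, n = 5 each), a log2 fold change of 5.07 ± 0.10. The ratio of reads, which the added 0.1 FPKM does not touch, was 68.0-fold higher in HPC (95% interval 59.2 to 78.6), from 12600 reads in HPC and 201 in DMSO. On the log2(FPKM + 0.1) scale CHST1 stood at rank 7 from the most raised of the tested genes, next to BEX2, whose ratio of reads was smaller at 38.7-fold.

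Of 28 carbohydrate sulfotransferases, keratan sulfate enzymes and makers and carriers of the sulfate donor in the table, 14 were tested, with 4 higher and 10 lower and a median of -0.38. CHST15, which sulfates chondroitin, fell (-1.44, adjusted p = 8.77e-12), as did CHST14, which sulfates dermatan (-0.65, adjusted p = 5.62e-08), and the fucosyltransferase gene FUT8 (-0.70, adjusted p = 8.52e-06). B4GALT4, a galactosyltransferase that builds keratan sulfate chains, rose (1.25 FPKM in HPC and 0.630 FPKM in DMSO, 0.89, adjusted p = 4.65e-09). The closest relatives of CHST1 differed little and their groups overlapped: CHST2 had 1.12 ± 0.166 FPKM in HPC and 0.910 ± 0.0942 FPKM in DMSO (adjusted p = 0.0158), and CHST3 had 3.34 ± 0.145 FPKM in HPC and 3.60 ± 0.181 FPKM in DMSO (adjusted p = 0.0355). Both calls were lost under some alternatives. CHST2 had adjusted p = 0.241 under the scaling to genes not encoded by mitochondria and 0.0655 under a replicate block with TPM rescaling. CHST3 had adjusted p = 0.161 under quantile normalization, 0.0762 under the replicate block and 0.0642 under limma's voom on the recovered reads. The limma call of CHST3 was also lost without DMSO replicate 1, 3, 4 or 5, or without HPC replicate 3, 4 or 5 (adjusted p = 0.0533 to 0.0845). PAPSS2, which makes the sulfate donor, averaged 0.562 FPKM in HPC and 0.565 FPKM in DMSO and was under the filter.

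ANK1 encodes ankyrin-R, which ties membrane proteins to spectrin and is best known from red blood cells, and is also made in brain and muscle. The gene (ENSG00000029534) lies on the minus strand at chr8:41653220-41896762. This stretch also holds MIR486-1, MIR486-2, the antisense gene AC113133.1 and the same-strand long non-coding RNA gene AC027702.1. Since the strand setting and annotation of the counting are not given, reads of ANK1 and of these genes cannot be told apart. ANK1 had 0.147, 0.170, 0.179, 0.232 and 0.156 FPKM in HPC replicates 1 to 5, against 4.47, 4.35, 4.06, 4.30 and 4.24 FPKM in DMSO replicates 1 to 5. HPC replicate 4 was again the highest of its group, and the lowest DMSO library was 17.5 times that value. Means were 0.177 ± 0.0333 FPKM in HPC and 4.28 ± 0.151 FPKM in DMSO (SD, n = 5 each), the log2 fold change was -3.99 ± 0.072, and the ratio of reads was 24.2-fold lower in HPC (95% interval 23.3 to 25.2).

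Of 24 ankyrins, spectrins and other membrane skeleton genes in the table, 8 were tested, with 3 higher and 5 lower and a median of -0.20; under the scaling to genes not encoded by mitochondria 10 were tested, with 2 higher and 7 lower and a median of -0.54. The other ankyrin genes were under the filter, and the groups did not overlap: ANK3 averaged 0.197 ± 0.0105 FPKM in HPC and 0.642 ± 0.0153 FPKM in DMSO, and ANK2 averaged 0.472 ± 0.0549 FPKM in HPC and 0.341 ± 0.0125 FPKM in DMSO. Both had many reads all the same, 4748 in HPC and 16812 in DMSO for ANK3, and 14211 in HPC and 11195 in DMSO for ANK2. SPTB, the erythroid spectrin that pairs with ankyrin-R, averaged 0.00358 FPKM in HPC and 0.00275 FPKM in DMSO. The widely expressed spectrins were present in both groups, SPTBN1 at 5.23 FPKM in HPC and 5.77 FPKM in DMSO (log2 fold change -0.14, adjusted p = 0.00073) and SPTAN1 at 6.43 FPKM in HPC and 4.84 FPKM in DMSO (0.40, adjusted p = 2.36e-09). The band 4.1 relatives EPB41L2 (-0.83, adjusted p = 4.31e-09) and EPB41L5 (0.54, adjusted p = 7.57e-10) moved in opposite directions, and the actin-binding skeleton genes DMTN (-0.75, adjusted p = 3.34e-09) and ADD1 (-0.54, adjusted p = 1.06e-08) fell.

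Lists built around REST and around the CREB family were measured beside the 7. REST, the repressor, had 2.16 ± 0.115 FPKM in HPC and 2.80 ± 0.0778 FPKM in DMSO (log2 fold change -0.36 ± 0.040, adjusted p = 1.58e-06). Of REST and its cofactors, 17 in the table and all tested, 3 (17.6%) were higher, 12 (70.6%) lower and 2 not called, with a median of -0.50. Over all tested genes 42.9% were higher and 44.8% lower, with a median of -0.01. The lower genes of this list included the histone methyltransferase EHMT2 (-1.70, adjusted p = 2.6e-13), the deacetylase HDAC1 (11.2 FPKM in HPC and 32.9 FPKM in DMSO, -1.54, adjusted p = 5.07e-15), the phosphatase CTDSP1 (-1.50, adjusted p = 1.32e-10) and the corepressor RCOR2 (-1.32, adjusted p = 1.4e-06). Of 22 genes of the CREB family, its coactivators and its NR4A targets in the table, 15 were tested, with 10 higher, 5 lower and a median of 0.30 that came to 0.14 under the scaling to genes not encoded by mitochondria. SIK1, a kinase that restrains CREB coactivators, rose (1.92, adjusted p = 1.86e-11), as did the transcription factors CREM (1.51, adjusted p = 4.08e-12), CREB3 (1.44, adjusted p = 4.39e-11) and CREB3L2 (1.11, adjusted p = 3.75e-11). CREB1 rose by less (0.28, adjusted p = 9.44e-06). NR4A1, NR4A2 and NR4A3 were under the filter, so the counts do not cover them. CREB1 and the NR4A genes were named after their values were seen. Over the 12 lists together, 111 genes were tested, 47 (42.3%) were higher, 59 (53.2%) were lower and 5 were not called, with a median of -0.19. The share higher was close to the 42.9% over all tested genes, and the share lower stood beside 44.8%.

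**Figure D3:**
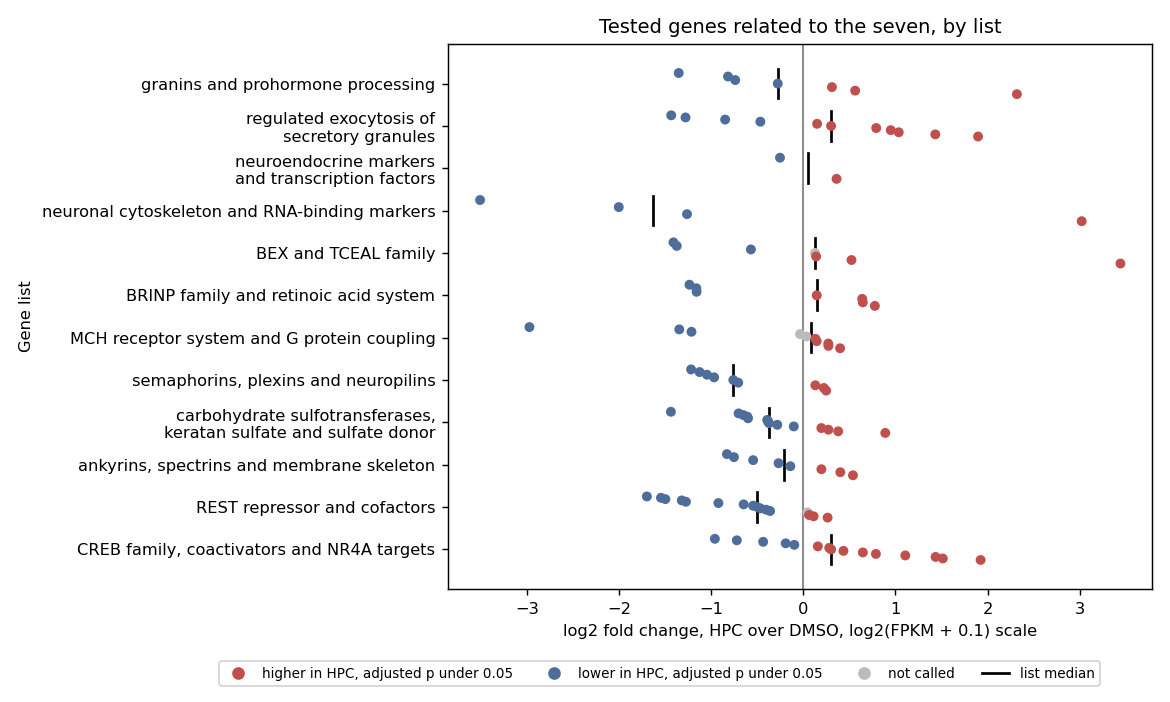
Log2 fold change of HPC over DMSO on the log2(FPKM + 0.1) scale for the tested genes of each of the 12 lists, with red points higher and blue points lower in HPC at an adjusted p under 0.05, grey points not called, and a black line at each list's median. Every list has points on both sides of 0, with NGFR (3.44) and MAP1B (3.02) farthest right and NES (-3.51) and SSTR5 (-2.97) farthest left.

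HPC replicate 4 deviated in the same way for most of the 7 genes. It was the highest of the 5 HPC libraries for SCG2, BRINP3, MCHR1, SEMA6B and ANK1, the 5 genes that were lower in HPC, and the lowest for CHST1, whereas BEX2 was lowest in HPC replicate 3. Across the 169 genes called at least 4-fold lower in HPC, replicate 4 was the highest HPC library for 50.9%, and across the 182 called at least 4-fold higher it was the lowest for 40.1%. Regressed on the mean change of the other 4 HPC libraries over the tested genes, its change from DMSO had a slope of 0.947, against 0.970 to 1.03 for the other HPC libraries. Without HPC replicate 4, the log2 fold changes were -2.03 for SCG2, 5.09 for BEX2, -4.68 for BRINP3, -4.10 for MCHR1, -4.18 for SEMA6B, 5.11 for CHST1 and -4.06 for ANK1.

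**Figure D4:**
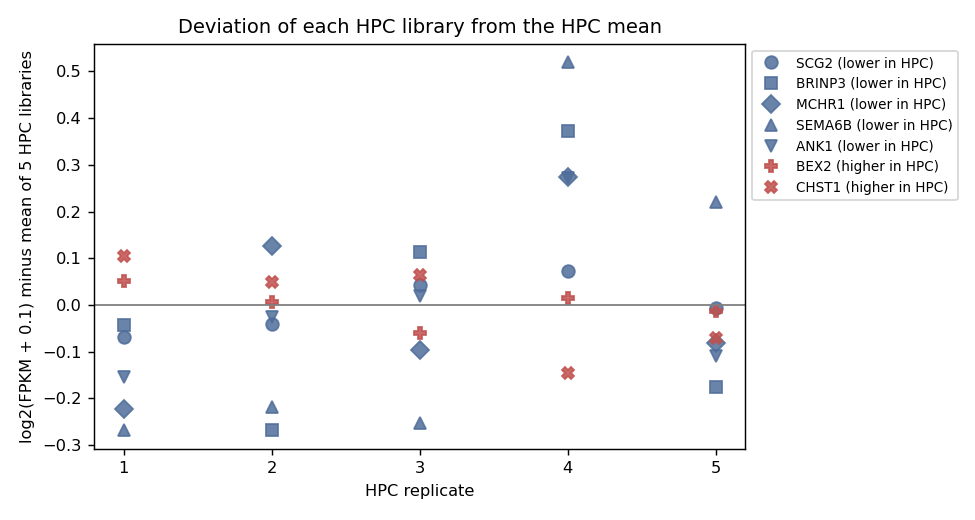
Deviation of each HPC library from the mean of the 5 HPC libraries, as log2(FPKM + 0.1), for each of the 7 genes, with blue symbols for the genes lower in HPC and red symbols for those higher. In replicate 4 the 5 blue symbols lie above 0, SEMA6B farthest, and CHST1 lies below 0.

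The genes whose pattern over the 10 libraries lay nearest to each of the 7 were found by the root mean square difference of log2 values centred on each gene's mean, a measure set mostly by the size of the difference between the groups. SCG2 lay nearest to the collagen gene COL6A1 (0.050) and the cyclin gene CCND1 (0.054), which fell by 1.94 and by 2.06 on the log2 scale. BEX2 and CHST1 both had DDIT3, the stress transcription factor CHOP, as their nearest gene (0.21 for BEX2 and 0.13 for CHST1), and DDIT3 averaged 37.9 ± 3.49 FPKM in HPC and 0.899 ± 0.0832 FPKM in DMSO. The next nearest were LAMP3, a lysosomal membrane protein, for BEX2 (0.26) and SPRR2D, a cornified envelope protein, for CHST1 (0.19). MCHR1, SEMA6B and ANK1 shared TCF7, a transcription factor of the Wnt pathway, and S100A4, a calcium-binding protein, as their nearest pair, with differences of 0.13 to 0.21. TCF7 averaged 1.08 ± 0.122 FPKM in HPC and 17.2 ± 0.489 FPKM in DMSO. BRINP3 lay nearest to the collagen gene COL1A2 (0.18) and to MEST (0.25).

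Genes next to the 7 on the chromosome mostly did not move as far. Within 500 kb on either side, tested neighbours that reached 4-fold in the same direction were found for SEMA6B alone, namely TNFAIP8L1 (log2 fold change -2.28) and UHRF1 (-2.23), out of 17 tested neighbours of which 6 were higher and 8 lower. The neighbour closest in size and direction was MRPL44 (-0.82) for SCG2, MORF4L2 (0.70) for BEX2, RBX1 (-0.87) for MCHR1, SLC35C1 (0.85) for CHST1 and SFRP1 (-1.93) for ANK1, and BRINP3 had no neighbour in the table. These neighbours were chosen after their values were seen.

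Promoters of the 7 genes were looked up in the RefSeq table, which matched BEX2 and BRINP3. Windows of 300 bases, from 250 before to 50 after the start, were searched on both strands for the cAMP response element TGACGTCA, found in 1.85% of 35116 promoters, the ATF4 and CHOP composite element TGATGNAAT (0.991%), the antioxidant response element TGACNNNGC (13.3%), the ER stress response element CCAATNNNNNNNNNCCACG (0.0769%) and the steroid response element GNACANNNTGTNC (0.390%). The upstream BRINP3 window held 1 match to TGATGNAAT that begins 182 bases before the start, and the other BRINP3 window and the BEX2 window held no match to any of the 5. GC content was 42.7% in the upstream BRINP3 window, 54.7% in the other BRINP3 window and 61.3% in the BEX2 window, beside a median of 58.7% over all promoters. A match describes letters in a window and shows neither binding nor a cause.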

How the data were processed

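Poly(A) RNA of 10 libraries was sequenced as 150-base paired-end reads, per the labels' protocols. Per the submitters' processing notes, the build was GRCh38.p13 and the tools were STAR 2.7.7a, fastp 0.23.2 and edgeR, whose roles they leave out. For the counter, annotation, gene lengths, strand setting and gene filter: not given in the sources used here. Values for 16734 genes were deposited by the authors as 1 table of FPKM. Whole reads were recovered from the steps in the FPKM values for all 15208 genes above 0 in at least 3 libraries, with a tolerance of 0.0001 read; reads of the remaining 1526 genes are a lower limit. Totals of recovered reads matched the library sizes behind the FPKM, so the values carry no further scaling factor.

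Values were analysed as log2(FPKM + 0.1), which understates the change of low genes. Genes reaching 1 FPKM in 5 or more libraries were fitted in R 4.3.3 by limma 3.58.1 (trend and robust empirical Bayes, two-sided, all 10 libraries), with Benjamini-Hochberg adjustment over 9150 genes at 0.05. Ratios of reads have Clopper-Pearson intervals at 95%; intervals and floors (3 reads) cover counting error only, since reads are not independent molecules. The 20 pairs of libraries within groups stood 11.8 to 24.9 times above counting noise, so none was taken for a copy. The procedure was run on simulated data in which few genes changed and noise was independent between genes. These data differ from that setting, since most tested genes were called, so the simulation does not cover them.

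The 7 genes and the 12 gene lists and 3 marker lists were chosen with earlier results of these data known. Genes named are the 7, a set of relatives named regardless of value, the 4 called genes with the largest change and no overlap in each list, and the 2 genes nearest in pattern to each of the 7; for any other gene the text says that its value was seen before it was named. In the exocytosis list 1 symbol, STXBP2, stands for 2 gene IDs. INSM1, BEX4, BRINP1, BRINP2, MCHR2 and SEMA6D were not analysed here. Coordinates are GENCODE 29 on GRCh38. Alternatives changed the pseudocount, filter, scaling, variance model, replicate block, count model and libraries included. Python 3.11.15, NumPy 2.4.6, pandas 2.3.3, SciPy 1.17.1, Biopython 1.88 and matplotlib 3.10.9 were used.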

Additional observations from a re-analysis of the deposited data

Results flagged for a closer look

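Of 187 groups of 5 libraries looked at, over the 7 genes and other genes named, 11 held a library that stood apart. Its gap to the nearest other library was more than 0.71 of the group's range. Chance alone gives about 1 in 20. Among the 14 groups of the 7 genes, 1 stood out, BEX2 in DMSO, where replicate 1 had 0.931 FPKM and the other libraries 0.439 to 0.553 FPKM. In HPC libraries, PAPSS2 replicate 2 had 0.655 FPKM (others 0.533 to 0.547), CHST15 replicate 5 had 2.7 FPKM (others 2.48 to 2.51), KRT18 replicate 4 had 156 FPKM (others 148 to 149) and MAFA replicate 5 had 2.18 FPKM (others 1.84 to 1.93). In DMSO libraries, CHST3 replicate 2 had 3.28 FPKM (others 3.63 to 3.72), RXRA replicate 1 had 5.02 FPKM (others 5.48 to 5.61), SEMA4B replicate 1 had 2.07 FPKM (others 1.85 to 1.92), B4GALT4 replicate 4 had 0.693 FPKM (others 0.600 to 0.621), DMTN replicate 2 had 1.12 FPKM (others 1.07 to 1.08) and CDH5 replicate 2 had 1.5 FPKM (others 1.40 to 1.42).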

How the results depend on the processing

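The 7 genes kept their direction under every alternative that gave a value, and leaving out each library in turn moved none by more than the spread between libraries. Sizes depended on the pseudocount. With 1 FPKM added the log2 fold changes were -1.91 for SCG2, 3.90 for BEX2, -3.47 for BRINP3, -1.46 for MCHR1, -3.55 for SEMA6B, 2.74 for CHST1 and -2.17 for ANK1. With 0.01 FPKM added they were -4.77 for BRINP3, -6.26 for MCHR1, 6.0 for CHST1 and -4.54 for ANK1, and with limma's voom on the recovered reads -4.79, -7.33, 6.14 and -4.61 in the same order. Scaled to genes not encoded by mitochondria, SCG2 was -2.18 and ANK1 -4.13; under quantile normalization SCG2 was -2.07 and MCHR1 -3.79.

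A minimum of 5 FPKM tested fewer genes and called 1969 higher and 1836 lower over all genes, and 22 higher and 31 lower over the 12 lists; MCHR1 and ANK1 then had no value. With no minimum the 12 lists held 75 higher and 100 lower, and scaled to genes not encoded by mitochondria they held 30 higher. The cause of other shifts was not tested.

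By list, the counts that moved by over 1.5 times were these. With no minimum: exocytosis 15 higher and 10 lower, neuroendocrine markers 4 and 3, neuronal cytoskeleton 4 and 6, semaphorins 7 and 15, ankyrins 6 and 14, with 7 lower in the retinoic acid list and 6 lower in the receptor list. With a minimum of 0.1 FPKM: exocytosis 12 higher and 7 lower, neuroendocrine 3 and 2, semaphorins 7 and 13, ankyrins 5 and 11, with 5 lower in the neuronal list and 5 lower in the retinoic acid list. With a minimum of 5 FPKM: granins 1 lower, exocytosis 3 higher, neuroendocrine 0 higher and 0 lower, neuronal 0 higher, retinoic acid 2 higher, receptor system 2 higher, semaphorins 1 higher, sulfotransferases 2 higher and 4 lower, ankyrins 2 lower, REST 4 lower, CREB 3 higher and 3 lower. Scaled to genes not encoded by mitochondria: neuroendocrine 0 higher, receptor system 2 higher and 5 lower, semaphorins 0 higher, sulfotransferases 2 higher, REST 1 higher. For REST, 1 was higher under TPM rescaling, 5 under quantile normalization and 1 under the replicate block with TPM rescaling.

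Among 78 tested genes named beside the 7, CHST2, CHST3 and ENO2 lost a call under at least 1 alternative. KRT8 changed sign, to -0.01 under the scaling to genes not encoded by mitochondria and -0.04 under quantile normalization, with its call lost in both. SEMA3D, PLXNA3 and SEMA4C were outside this set. The replicate block called 3892 genes higher and 4077 lower. Same-numbered libraries correlated at -0.06, 0.07, 0.20, 0.02 and 0.14 in their deviations from the group means, and replicates 3 and 5 matched their own number best, so the numbers were not taken as pairs. Depth limits MCHR1 in HPC, at 0 to 16 reads a library.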
